A study of Homo sapiens with 12 samples.

Results

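The amino acid and unfolded protein stress genes described here are 41 genes taken by symbol: targets of the transcription factor ATF4, genes of amino acid synthesis and transport, tRNA synthetases, and chaperones of the endoplasmic reticulum (ER). All 41 were found among the 17096 genes listed in the 12 expression files, and all passed the filter on low values. All were above 0 in every library, but so was every listed gene. They were read as an ATF4 branch of 26 genes and an ER chaperone branch of 15 genes. The cells were H7, a human embryonic stem cell line, driven toward cardiomyocytes. The study compared cells labelled as knockouts of E2A, the gene listed here as TCF3, with wild type at days 3, 7 and 15. The groups, of 2 libraries each, were H7 cells labelled E2A-/- at day 3, wild type at day 3, labelled E2A-/- at day 7, wild type at day 7, labelled E2A-/- at day 15, and wild type at day 15. The labels call the day 3 cells cardiac mesoderm and the later ones cardiomyocytes. They give no other allele or agent, and neither the number of knockout clones nor the origin of the replicates. The p-values therefore measure the spread between these libraries, which may be technical.

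Cells that run short of amino acids, or that fill the ER with unfolded protein, phosphorylate the initiation factor eIF2. This lowers general translation and raises translation of ATF4, which switches on genes that import and make amino acids, charge tRNAs, and in time end the response or promote death. The unfolded protein response has further arms through ATF6 and the spliced form of XBP1, which raise ER chaperones, disulfide isomerases and degradation factors through elements of their own. ATF4 is controlled largely at translation and XBP1 by splicing, and neither can be read from the level of the mRNA.

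Short promoter stretches were searched for motifs tied to the factors of these responses. The genes had been chosen for their known place in the same responses. A difference in motifs between the branches, or from all promoters, was therefore largely built into the choice of genes and motifs. The shares here and for the ER elements below describe that difference and do not test it. RefSeq promoters of GRCh38.p14, from 250 bases before to 50 after each gene start, were found for 38 of the 41 genes, and for several genes more than 1 start was listed. SLC7A11, PSPH and SHMT2 had no entry. TGATGNAA, the core shared by sites for C/EBP and ATF proteins, was searched on both strands. It lay in 9 of 39 ATF4-branch promoters (23.1%), in 1 of 21 ER-branch promoters (4.76%) and in 3.62% of all 35116 promoters. Promoters of 1 gene can overlap and share a site. Counted by gene, it lay in 9 of 23 ATF4-branch genes (39.1%), 1 of 15 ER-branch genes (6.67%) and 4.46% of all. The 9 genes were ATF3, CEBPG, CHAC1, ASNS, SLC3A2, SLC7A1, CARS, GARS and AARS. Printed 5′ to 3′ along the gene, with the core or its reverse complement in capitals, 6 of them read:
CHAC1, chr15:40953251-40953280, plus strand: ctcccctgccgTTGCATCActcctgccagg
ASNS, chr7:97872458-97872487, minus strand: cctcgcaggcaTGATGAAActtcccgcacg
AARS, chr16:70289675-70289704, minus strand: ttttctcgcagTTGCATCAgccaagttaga
CEBPG, chr19:33374060-33374089, plus strand: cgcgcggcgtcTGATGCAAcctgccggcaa
ATF3, chr1:212565205-212565234, plus strand: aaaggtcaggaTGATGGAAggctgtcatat
GARS, chr7:30594834-30594863, plus strand: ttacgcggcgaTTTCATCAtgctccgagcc
The stretches of CHAC1, ASNS and GARS overlap exons of the basic annotation of GENCODE release 29, and the other 3 overlap none of them.

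The ER stress element, CCAAT and CCACG with 9 bases between them, on either strand, lay in 8 of 21 ER-branch promoters (38.1%), in 0 of 39 ATF4-branch promoters and in 0.0769% of all promoters. The 6 genes holding it were HSPA5, HSP90B1, CALR, CANX, PDIA6 and XBP1. They made up 40% of the 15 ER-branch genes, beside 0.0916% of all genes with a promoter. ER stress element II, ATTGG and CCACG with 1 base between them, lay in 3 of 21 ER-branch promoters (14.3%), those of HYOU1, HERPUD1 and SDF2L1, in 0 of 39 of the ATF4 branch and in 0.0541% of all. TGACGTGG, the core bound by ATF6 and XBP1, lay in 0.729% of all promoters and in those of CARS and HYOU1. In HYOU1 it overlaps a copy of element II. In 33 promoters of other ER genes, for folding, translocation and degradation, the ER stress element lay in 3 (9.09%). Element II lay in 0 of these 33 and TGACGTGG in 3 (9.09%). The stretches below carry the elements in capitals, and CANX is shown because it holds one but changed at no day. The HERPUD1 stretch also holds a TGATGNAA core, and that of HYOU1 holds 2 copies of element II:
HSPA5, chr9:125241380-125241420, minus strand: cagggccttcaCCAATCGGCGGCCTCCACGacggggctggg
CALR, chr19:12938373-12938413, plus strand: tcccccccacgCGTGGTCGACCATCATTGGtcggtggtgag
CANX, chr5:179698767-179698807, plus strand: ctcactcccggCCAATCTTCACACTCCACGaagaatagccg
SDF2L1, chr22:21642103-21642135, plus strand: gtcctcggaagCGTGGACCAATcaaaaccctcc
HERPUD1, chr16:56931955-56932046, plus strand: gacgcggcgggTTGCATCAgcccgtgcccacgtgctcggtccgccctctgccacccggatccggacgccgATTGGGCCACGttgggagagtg
HYOU1, chr11:119057263-119057404, minus strand: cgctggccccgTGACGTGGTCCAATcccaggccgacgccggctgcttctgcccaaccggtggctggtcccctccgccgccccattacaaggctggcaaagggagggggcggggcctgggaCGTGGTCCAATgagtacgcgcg
These 6 stretches overlap no exon of that basic annotation, and the full annotation was not searched for them. A match describes these letters in this window and is not a measured binding site. As genes and elements were not chosen independently, the shares are no test of a link between them.

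**Figure D1:**
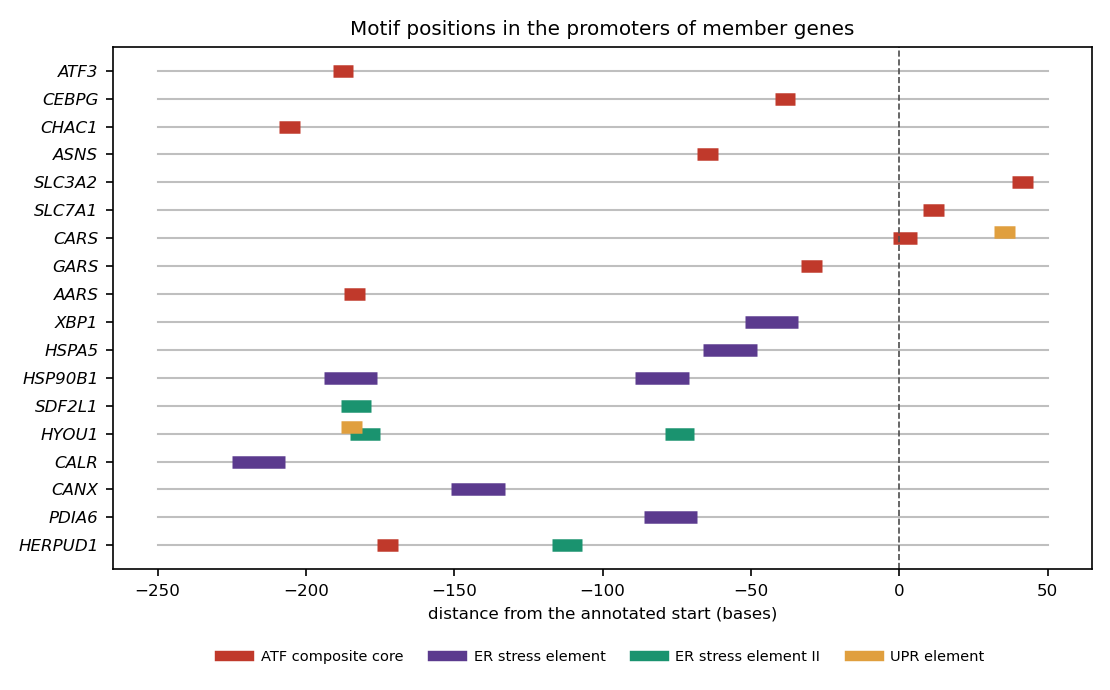
Positions of the searched motifs in the promoters of the member genes that hold any, in bases from the annotated start (x axis). Each row is a gene, with motifs placed from the start of the promoter that holds them, and the ATF composite core lies in 9 ATF4-branch genes whereas the ER stress elements lie in ER-branch genes.

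Values were FPKM, fragment counts scaled to transcript length and library size. They summed to 577716 to 734958 a library. Depth estimated from low values was about 6700000 to 11600000 fragments, a rough figure that rests on 17 to 47 values a library. Mitochondrially encoded genes took 17.4% to 18.8% of summed FPKM in the labelled knockout at day 3 and 15.7% to 16.9% in wild type. The shares were 18.5% to 20.2% against 8.14% to 8.55% at day 7, and 13.9% to 14.3% against 26.1% to 26.2% at day 15. TCF3 mRNA did not pass the test at day 3 (146 and 148 FPKM in the labelled knockout, 179.5 and 149 FPKM in wild type, adjusted p = 0.618) or day 7 (adjusted p = 0.159). TCF3 was higher at day 15 (log2 change 0.66 ± 0.19, adjusted p = 0.0234), a call that ended without wild-type replicate 1 (0.46) or labelled knockout replicate 1 (0.34). TCF3 mRNA was thus called lower in the labelled knockout at no day, and the label could not be checked from it. Gene-level FPKM do not show whether its transcript was altered or its protein lost, so the libraries are named by their label throughout and each direction below rests on it. Summed FPKM of 6 cardiomyocyte markers was 1006 to 1156 in the labelled knockout and 6055 to 6056 in wild type at day 7, where 6 of 6 were lower. It was 2941 to 3640 against 8502 to 9379 at day 15, where 3 were lower and 1 higher. The 5 cardiac mesoderm markers summed to 345 to 375 in the labelled knockout at day 3 and 1002 to 1009 in wild type, and 3 of 5 were lower. Neural markers were higher in the labelled knockout for 3 of 4 genes at each day, and 1 was lower at day 3. They summed to 425 to 426 against 267 to 270.4 FPKM at day 3, 300.4 to 303 against 97.6 to 105 at day 7 and 92.3 to 107 against 41.01 to 46.1 at day 15. Endoderm markers were lower for 2 of 3 genes at each day. Epithelial markers were lower for 3 of 4 genes at days 3 and 7, with sums of 748 to 775 in the labelled knockout and 1228 to 1239 in wild type at day 3 and 1144 to 1154 against 4034 to 4077 at day 7, and at day 15 2 were lower and 1 higher. Both fibroblast and matrix markers were lower at days 3 and 7, with 53.5 to 64.4 against 104 to 106 and 292 to 359.6 against 550.3 to 579. Endothelial markers were lower for 3 of 4 genes at day 7 (54.3 to 61.8 against 90.8 to 97.5), and at day 15 2 were higher and 1 lower. Their day 15 sums were lower, with 61.2 to 66.5 in the labelled knockout and 71.8 to 74.8 in wild type. Of 2 pluripotency markers 1 was higher at days 3 and 7. Their sum was lower at day 3, with 1045 to 1063 in the labelled knockout and 1181 to 1182 in wild type. It was higher at day 7, with 184 to 216 against 146 to 150. No marker was at 0 in any library, but neither was any other listed gene. Of the chosen markers, 3 of 6 endoderm, 2 of 5 fibroblast and matrix, 4 of 5 neural and 2 of 3 pluripotency genes were measured. The part of these shifts in the results below was not tested, and in bulk RNA fewer cells of a type and less RNA per cell cannot be told apart.

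Most called genes of both branches were lower in the labelled knockout at day 3, the branches parted at day 7, and at day 15 the ATF4 branch itself split. A gene was called when its adjusted p from limma, over all 16295 genes tested, was below 0.05. Log2 changes are of FPKM + 1, labelled knockout minus wild type, with their standard error. Where the libraries of a gene are said not to overlap, this describes the values and adds no support to a call. With 2 libraries a group it is a weak criterion, and its share over all genes was not computed. At day 3, 12 of 26 ATF4-branch genes were lower and 1 higher, and 9 of 15 ER-branch genes were lower and 1 higher. Over all genes tested 14.1% were called lower and 9.51% higher, 23.6% in all. At day 7, 13 ATF4-branch genes were higher and 4 lower, while 8 ER-branch genes were lower and 0 higher. The shares of all genes were 22.1% higher, 19.9% lower and 42% in all. At day 15, 6 ATF4-branch genes were higher and 9 lower, and 4 ER-branch genes were higher and 0 lower. Of all genes 18.9% were higher and 16.2% lower, 35.1% in all. The ER-branch count at day 15 is below this share, and 2 of its 4 calls held in all alternatives.

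The branch medians gave the size of these shifts. At days 3, 7 and 15 the median log2 change was -0.38, 0.34 and -0.023 in the ATF4 branch and -0.67, -0.55 and 0.22 in the ER branch, beside -0.014, 0.057 and 0.033 over all genes. Of the 41 genes, 38 were called at 1 day at least, and PSPH, SARS and CANX at none. Of all genes 23.6%, 42% and 35.1% were called at days 3, 7 and 15. Their share called at 1 day at least was not computed, so the 38 cannot be set against it. In the ATF4 branch 5 genes, CHAC1, PSAT1, SLC7A11, CARS and GARS, were lower at day 3 and higher at day 7. This pattern was found in 0 ER-branch genes. The day 3 calls of SLC7A11, CARS and GARS ended in some alternatives. Lower at both days were 6 ER-branch genes and 2 of the ATF4 branch, TRIB3 and PPP1R15A. The shares of all genes with these patterns were not computed. Scaling each library to its nuclear-encoded genes, an alternative to the deposited scale, moved the median of all genes to 0.12 at day 3 and 0.22 at day 7. It turned the share of calls that were higher from 40.3% into 62.3% at day 3 and from 52.6% into 68.2% at day 7, with 53.8% and 54.6% at day 15. The ATF4 branch then counted 2 higher and 10 lower at day 3, 14 higher and 3 lower at day 7, and 6 higher and 9 lower at day 15. The ER branch counted 1 higher and 7 lower, 0 higher and 7 lower, and 4 higher and 0 lower at the same days.

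**Figure D2:**
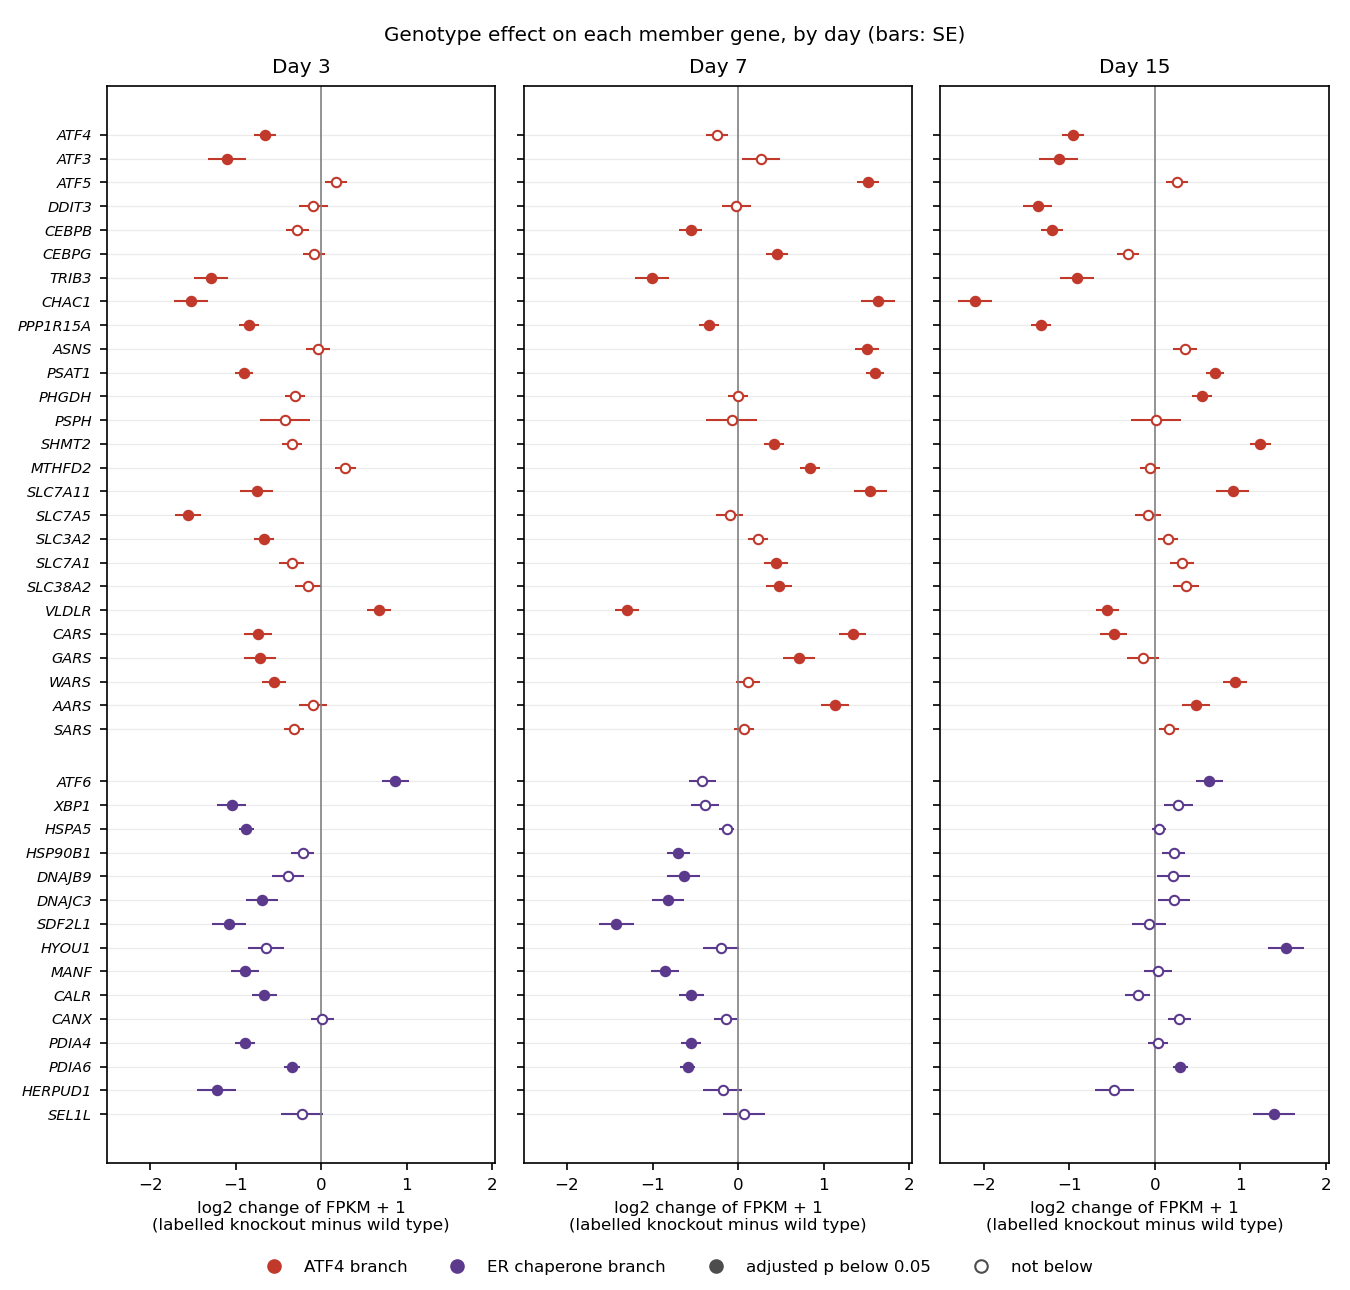
Log2 change of FPKM + 1 of each of the 41 genes, labelled knockout minus wild type (x axis), at days 3, 7 and 15, with the standard error as bars, called genes filled, ATF4 branch above ER branch. At day 7 the called ATF4-branch genes lie mostly above 0 (13 higher, 4 lower) and the called ER-branch genes all below it (8 lower).

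The first group of the ATF4 branch is its 9 regulators, ATF4 itself with the factors and feedback genes of its response. At day 3, 5 of the 9 were lower and 0 higher. At day 7, 3 were higher and 3 lower. At day 15, 7 were lower and 0 higher, with a median change of -1.13. These counts and those of the groups below stand beside 23.6%, 42% and 35.1% of all genes called at days 3, 7 and 15. ATF4 (chromosome 22, 39519695 to 39522685, plus strand, GRCh38 as in GENCODE release 29, used for all gene positions) had 192 and 232 FPKM in the labelled knockout and 337 and 330.1 FPKM in wild type at day 3. The groups did not overlap, and the change was -0.66 ± 0.13, adjusted p = 0.00456. At day 7 ATF4 had 175 and 202 FPKM in the labelled knockout and 218 and 229 FPKM in wild type. The groups were again apart but did not pass the test (-0.25 ± 0.13, adjusted p = 0.147). At day 15 ATF4 had 199 and 170.4 FPKM in the labelled knockout and 338 and 378 FPKM in wild type, again with no overlap. The change was -0.96 ± 0.13, adjusted p = 0.000337.

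CHAC1, an ATF4 target that breaks down glutathione, changed direction at each day (chromosome 15, 40952962 to 40956519, plus strand). It had 10.6 and 7.61 FPKM in the labelled knockout and 27.4 and 28.1 FPKM in wild type at day 3. CHAC1 was lower in both labelled knockout libraries than in either wild-type library, with a change of -1.52 ± 0.20 (adjusted p = 0.000501). At day 7 CHAC1 had 8.79 and 10.6 FPKM in the labelled knockout and 2.54 and 2.34 FPKM in wild type. CHAC1 was higher in both labelled knockout libraries than in either wild-type library, with a change of 1.63 ± 0.20 (adjusted p = 0.000136). At day 15 CHAC1 had 9.28 and 6.45 FPKM in the labelled knockout and 34.1 and 39.3 FPKM in wild type. CHAC1 was lower in both labelled knockout libraries than in either wild-type library, with a change of -2.10 ± 0.20 (adjusted p = 4.29e-05). The labelled knockout libraries of all days lay between 6.45 and 10.6 FPKM, while wild type was high at days 3 and 15 and low at day 7. The genotype effect at day 7 minus that at day 3 was 3.16 ± 0.28, adjusted p = 7.52e-05, and at day 15 minus day 7 it was -3.74 ± 0.28, adjusted p = 1.59e-05. ATF5, a related factor of the same response, had 15.1 and 14.2 FPKM in the labelled knockout and 4.7 and 4.2 FPKM in wild type at day 7. ATF5 was higher in both labelled knockout libraries than in either wild-type library, with a change of 1.52 ± 0.13 (adjusted p = 1.72e-05). Its values at day 3 (0.18 ± 0.13, adjusted p = 0.359) and day 15 (0.26 ± 0.13, adjusted p = 0.147) did not pass. Its exons overlap NUP62 and IL4I1 on the other strand, which counting without strand would not separate.

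TRIB3, a pseudokinase that damps ATF4 activity, was lower at all 3 days. It had 1.6 and 2.27 FPKM in the labelled knockout and 6.28 and 5.98 FPKM in wild type at day 3. TRIB3 was lower in both labelled knockout libraries than in either wild-type library, with a change of -1.29 ± 0.20 (adjusted p = 0.00136). Its changes were -1.01 ± 0.20 at day 7 and -0.91 ± 0.20 at day 15. PPP1R15A, the phosphatase subunit that restores eIF2 activity, was also lower at all 3 days. It had 27.9 and 25.2 FPKM in the labelled knockout and 65 and 71.9 FPKM in wild type at day 15. PPP1R15A was lower in both labelled knockout libraries than in either wild-type library, with a change of -1.33 ± 0.12 (adjusted p = 2.99e-05). At day 3 its change was -0.84 ± 0.12. Its day 7 change of -0.34 ± 0.12, adjusted p = 0.0395, was small and ended without any 1 of the 4 libraries (-0.40 to -0.28) and with nuclear scaling (-0.14). DDIT3, or CHOP, the factor tied to cell death under lasting ER stress, was called at day 15 alone of the 3 days. It had 18.6 and 16.4 FPKM in the labelled knockout and 18.6 and 18.7 FPKM in wild type at day 3, groups that lay close without overlap. It had 13.9 and 11.4 FPKM in the labelled knockout and 30.8 and 37.9 FPKM in wild type at day 15. DDIT3 was lower in both labelled knockout libraries than in either wild-type library, with a change of -1.37 ± 0.17 (adjusted p = 0.000213). Its exons overlap the tRNA synthetase gene MARS on the other strand.

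ATF3, an early stress factor, was lower at day 3 (-1.10 ± 0.22, adjusted p = 0.00584) and day 15. In the day 15 libraries it had 35.8 and 20.2 FPKM in the labelled knockout and 63.3 and 56.9 FPKM in wild type. ATF3 was lower in both labelled knockout libraries than in either wild-type library, with a change of -1.13 ± 0.22 (adjusted p = 0.00337). The day 15 labelled knockout libraries differed from each other, and the change was -0.73 without replicate 2, the lower one. CEBPB, a partner of ATF4 on DNA, was lower at day 7 (-0.56 ± 0.13) and day 15 (-1.20 ± 0.13). At day 7 its call ended without wild-type replicate 2 (-0.51, adjusted p = 0.0546), and with nuclear scaling its change was -0.37. CEBPG, which also pairs with ATF4, was higher at day 7 (0.45 ± 0.13), a call that ended without wild-type replicate 2 or either labelled knockout library (0.39 to 0.45). At day 15 CEBPG had a change of -0.31 ± 0.13, adjusted p = 0.0789.

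**Figure D3:**
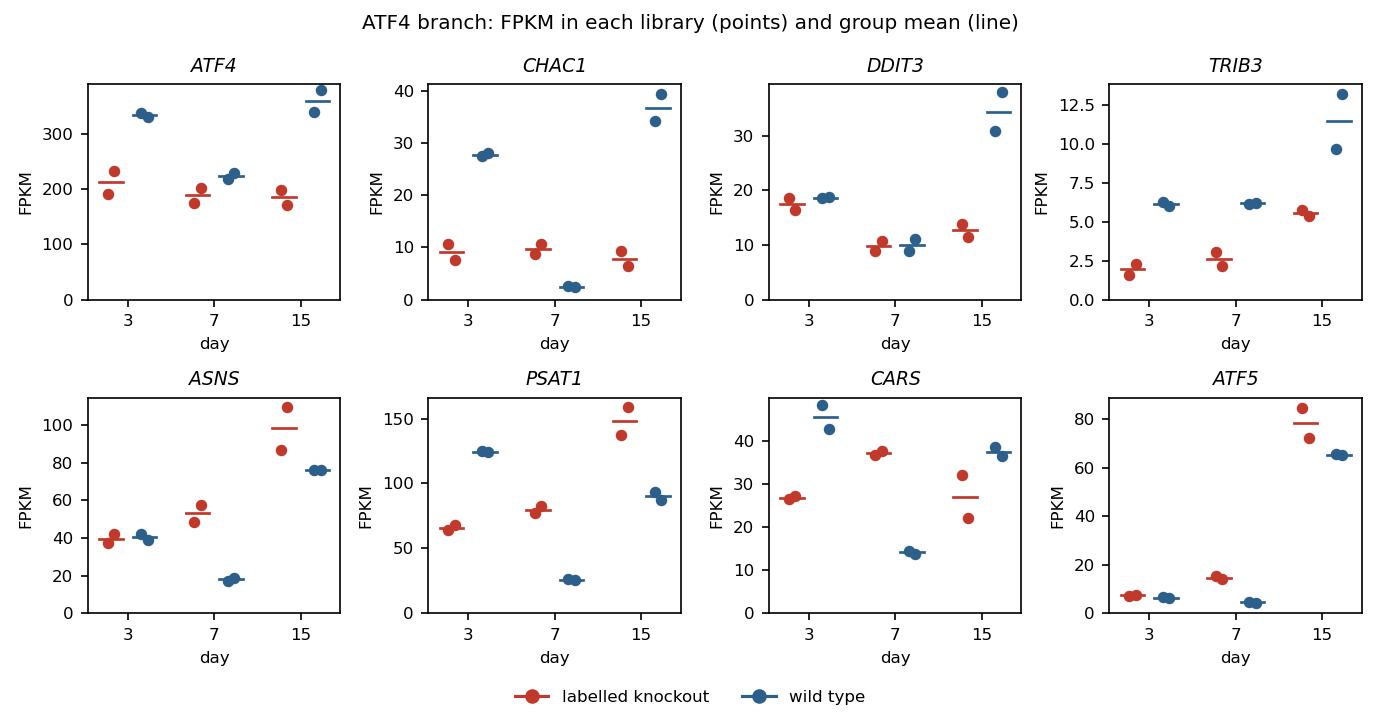
FPKM (y axis) of chosen ATF4-branch genes in each library (points) and the group mean (line) at days 3, 7 and 15, labelled knockout left of wild type. CHAC1 was lower in the labelled knockout at days 3 and 15 and higher at day 7, where its wild-type libraries had 2.54 and 2.34 FPKM.

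Of the 6 enzymes of amino acid synthesis, 1 was lower in the labelled knockout at day 3, 4 were higher at day 7 and 3 were higher at day 15. The day 3 count is below the share of all genes called (23.6%). PSAT1, an aminotransferase of the serine pathway (chromosome 9, 78297143 to 78330093, plus strand), had 64.2 and 67.8 FPKM in the labelled knockout and 125 and 124 FPKM in wild type at day 3. PSAT1 was lower in both labelled knockout libraries than in either wild-type library, with a change of -0.91 ± 0.11 (adjusted p = 0.000259). At day 7 PSAT1 had 76.9 and 82.9 FPKM in the labelled knockout and 26 and 25.5 FPKM in wild type. PSAT1 was higher in both labelled knockout libraries than in either wild-type library, with a change of 1.60 ± 0.11 (adjusted p = 3.82e-06). At day 15 PSAT1 had 138 and 159 FPKM in the labelled knockout and 93.2 and 87.4 FPKM in wild type. PSAT1 was higher in both labelled knockout libraries than in either wild-type library, with a change of 0.71 ± 0.11 (adjusted p = 0.000621). The groups were apart at every day, with the labelled knockout below wild type at day 3 and above it after. ASNS, which makes asparagine (chromosome 7, 97852118 to 97872542, minus strand), had 48.7 and 57.7 FPKM in the labelled knockout and 17.1 and 18.9 FPKM in wild type at day 7. ASNS was higher in both labelled knockout libraries than in either wild-type library, with a change of 1.51 ± 0.14 (adjusted p = 2.81e-05). At day 3 its groups overlapped (-0.034 ± 0.14, adjusted p = 0.893), and at day 15 its change was 0.35 ± 0.14, adjusted p = 0.0739.

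Both mitochondrial one-carbon enzymes were called higher at day 7, and 1 of them at day 15. SHMT2, which splits serine for one-carbon units, had 273 and 224 FPKM in the labelled knockout and 103 and 106 FPKM in wild type at day 15. SHMT2 was higher in both labelled knockout libraries than in either wild-type library, with a change of 1.23 ± 0.12 (adjusted p = 5.09e-05). At day 7 its change of 0.42 ± 0.12 was called, but not without wild-type replicate 1 or either labelled knockout library (0.34 to 0.43). MTHFD2, the next enzyme, had 97.9 and 103 FPKM in the labelled knockout and 56.1 and 55.1 FPKM in wild type at day 7. MTHFD2 was higher in both labelled knockout libraries than in either wild-type library, with a change of 0.84 ± 0.12 (adjusted p = 0.000373). At day 15 it had overlapping groups (-0.057 ± 0.12, adjusted p = 0.744). PHGDH, the first enzyme of serine synthesis, was called at day 15 alone (0.55 ± 0.12, adjusted p = 0.00492) and missed the threshold when the day 15 groups were fitted alone (adjusted p = 0.0531). PSPH, the last enzyme of that path, had 9.36 and 19.1 FPKM in the labelled knockout and 16.3 and 20.5 FPKM in wild type at day 3, with labelled knockout replicates further apart than the group means. It had changes of -0.42, -0.077 and 0.011 that were not called.

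The 5 amino acid transporters were lower for 3 genes at day 3, higher for 3 at day 7 and higher for 1 at day 15. The day 15 count is below the share of all genes called (35.1%). SLC7A5, the light chain of the leucine transporter LAT1 (chromosome 16, 87830023 to 87869488, minus strand), had 25.8 and 25.7 FPKM in the labelled knockout and 76.6 and 78.8 FPKM in wild type at day 3. SLC7A5 was lower in both labelled knockout libraries than in either wild-type library, with a change of -1.56 ± 0.16 (adjusted p = 0.000113). Its groups lay close at day 7 (-0.099 ± 0.16, adjusted p = 0.644) and overlapped at day 15 (-0.081 ± 0.16, adjusted p = 0.72). SLC3A2, the heavy chain it pairs with, was lower at day 3 too (-0.67 ± 0.12, adjusted p = 0.00259). SLC7A11, the cystine importer that feeds glutathione synthesis, had the lowest FPKM of the transporters in every library, with 2.83 and 2.95 FPKM in the labelled knockout and 0.279 and 0.389 FPKM in wild type at day 7. SLC7A11 was higher in both labelled knockout libraries than in either wild-type library, with a change of 1.55 ± 0.19 (adjusted p = 0.000174). With so low a wild-type level that change depended on the pseudocount and was 2.80 with 0.1 in place of 1. At day 3 its change of -0.76 ± 0.19 ended without any 1 of the 4 libraries (-0.86 to -0.65) and with nuclear scaling (-0.60), and at day 15 it was 0.91 ± 0.19. SLC7A1, which imports arginine and lysine, and SLC38A2, which imports small neutral amino acids, were called at day 7 alone (0.44 ± 0.14 and 0.48 ± 0.15). The SLC7A1 call ended without any 1 of the 4 libraries (0.42 to 0.47). The SLC38A2 call ended without either wild-type library or without labelled knockout replicate 1 (0.27 to 0.55). VLDLR, a lipoprotein receptor and ATF4 target, ran the other way, with 22.7 and 25.3 FPKM in the labelled knockout and 13.5 and 15.7 FPKM in wild type at day 3. VLDLR was higher in both labelled knockout libraries than in either wild-type library, with a change of 0.68 ± 0.14 (adjusted p = 0.00614). It had 30.2 and 27.7 FPKM in the labelled knockout and 74.2 and 71.4 FPKM in wild type at day 7. VLDLR was lower in both labelled knockout libraries than in either wild-type library, with a change of -1.30 ± 0.14 (adjusted p = 6.36e-05). At day 15 its change was -0.56 ± 0.14. Without wild-type replicate 1 of the same day, its call ended at day 3 (0.58) and at day 15 (-0.39).

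The 5 tRNA synthetases, which load amino acids on their tRNAs, were lower for 3 genes at day 3 and higher for 3 at day 7, and at day 15, 2 were higher and 1 lower. CARS, for cysteine (chromosome 11, 3000922 to 3057613, minus strand), had 36.7 and 37.6 FPKM in the labelled knockout and 14.5 and 13.7 FPKM in wild type at day 7. CARS was higher in both labelled knockout libraries than in either wild-type library, with a change of 1.34 ± 0.16 (adjusted p = 0.00012). It was lower at day 3 (-0.74 ± 0.16), not called without wild-type replicate 1 (-0.65). At day 15 its change of -0.48 ± 0.16 lost its call without either wild-type library or labelled knockout replicate 2 (-0.52 to -0.22), and was -0.74 without labelled knockout replicate 1. GARS, for glycine, had changes of -0.72 ± 0.19 at day 3 and 0.71 ± 0.19 at day 7. The day 3 call ended without any 1 of the 4 libraries (-0.76 to -0.67) and the day 7 call without replicate 1 of either genotype (0.48 to 0.67). AARS, for alanine, had 102 and 95.1 FPKM in the labelled knockout and 44.2 and 44.5 FPKM in wild type at day 7. AARS was higher in both labelled knockout libraries than in either wild-type library, with a change of 1.13 ± 0.16 (adjusted p = 0.000413). Its day 15 change of 0.48 ± 0.16 ended without either wild-type library or labelled knockout replicate 1 (0.21 to 0.55), and was 0.75 without labelled knockout replicate 2. WARS, for tryptophan, which interferon also induces, was lower at day 3 (-0.55 ± 0.14), a call that ended without any 1 library (-0.61 to -0.50) and with nuclear scaling (-0.38). At day 15 WARS had 202 and 152 FPKM in the labelled knockout and 84.3 and 98.7 FPKM in wild type. WARS was higher in both labelled knockout libraries than in either wild-type library, with a change of 0.93 ± 0.14 (adjusted p = 0.000641). SARS, for serine, was called at no day, with changes of -0.32, 0.07 and 0.16.

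In the ER branch the 7 chaperones and helpers outside the lectin group were lower for 4 of 7 at day 3 and 5 of 7 at day 7. HSPA5, or BiP, the main ER chaperone and the protein that holds the stress sensors inactive (chromosome 9, 125234853 to 125241330, minus strand), had 161 and 159.8 FPKM in the labelled knockout and 293 and 298 FPKM in wild type at day 3. HSPA5 was lower in both labelled knockout libraries than in either wild-type library, with a change of -0.88 ± 0.086 (adjusted p = 0.000104). At day 7 HSPA5 had 125 and 121 FPKM in the labelled knockout and 134 and 136 FPKM in wild type. The HSPA5 groups did not overlap at day 7, and the change of -0.13 ± 0.086 did not pass the test (adjusted p = 0.24). At day 15 HSPA5 had 126 and 119.6 FPKM in the labelled knockout and 119 and 119 FPKM in wild type. The HSPA5 groups did not overlap at day 15, and the change of 0.047 ± 0.086 did not pass the test (adjusted p = 0.702). HSP90B1, or GRP94, which folds secreted and surface proteins, had 309 and 305 FPKM in the labelled knockout and 520.1 and 478 FPKM in wild type at day 7. HSP90B1 was lower in both labelled knockout libraries than in either wild-type library, with a change of -0.70 ± 0.13 (adjusted p = 0.00217). It was not called at day 3 (-0.22 ± 0.13, adjusted p = 0.271) or day 15 (0.22 ± 0.13, adjusted p = 0.224).

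Of the helpers of BiP, SDF2L1, MANF and DNAJC3 were lower at both early days and DNAJB9 at day 7. SDF2L1, which works with ER J proteins (chromosome 22, 21642261 to 21644298, plus strand), had 12.3 and 14.3 FPKM in the labelled knockout and 28.6 and 29.7 FPKM in wild type at day 3. SDF2L1 was lower in both labelled knockout libraries than in either wild-type library, with a change of -1.08 ± 0.20 (adjusted p = 0.00395). It had 10.02 and 9.25 FPKM in the labelled knockout and 22.5 and 33.5 FPKM in wild type at day 7. SDF2L1 was lower in both labelled knockout libraries than in either wild-type library, with a change of -1.42 ± 0.20 (adjusted p = 0.000368). At day 15 its groups overlapped (-0.07 ± 0.20, adjusted p = 0.815). MANF, a secreted protein that binds BiP, was lower at day 3 (-0.89 ± 0.17) and day 7 (-0.85 ± 0.17). DNAJC3, an ER J protein that also restrains eIF2 kinases, was lower at day 3 (-0.69 ± 0.19) and day 7 (-0.82 ± 0.19). The day 3 call of DNAJC3 ended without either wild-type library or labelled knockout replicate 2 (-0.71 to -0.50), and with nuclear scaling (-0.53). DNAJB9, an ER J protein that returns the sensor IRE1 to rest, was called at day 7 alone (-0.64 ± 0.19), and not without either wild-type library or labelled knockout replicate 2 (-0.69 to -0.56) nor with nuclear scaling (-0.44). HYOU1, the exchange factor of BiP (chromosome 11, 119044189 to 119057202, minus strand), had 159 and 130.4 FPKM in the labelled knockout and 234 and 218 FPKM in wild type at day 3. The groups were apart but did not pass the test (-0.65 ± 0.21, adjusted p = 0.0504). At day 15 HYOU1 had 129 and 85.9 FPKM in the labelled knockout and 33.6 and 38.2 FPKM in wild type. HYOU1 was higher in both labelled knockout libraries than in either wild-type library, with a change of 1.53 ± 0.21 (adjusted p = 0.000437).

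The lectin chaperones, which fold glycoproteins, differed in their calls. CALR, in the ER lumen, had 401 and 384 FPKM in the labelled knockout and 645 and 603 FPKM in wild type at day 3. CALR was lower in both labelled knockout libraries than in either wild-type library, with a change of -0.67 ± 0.14 (adjusted p = 0.00816). It was also lower at day 7 (-0.55 ± 0.14). Its day 3 call ended without wild-type replicate 1 (-0.62) and its day 7 call without either wild-type library or labelled knockout replicate 2 (-0.55 to -0.44). With nuclear scaling its day 7 change was -0.34. CANX, its membrane relative, had 457 and 379 FPKM in the labelled knockout and 411 and 415 FPKM in wild type at day 3. Its changes were 0.011, -0.15 and 0.28, none called.

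Both disulfide isomerases, which form and shuffle the bonds of folding proteins, were lower at days 3 and 7. PDIA4 (chromosome 7, 149003062 to 149028641, minus strand) had 146 and 146 FPKM in the labelled knockout and 269 and 274 FPKM in wild type at day 3. PDIA4 was lower in both labelled knockout libraries than in either wild-type library, with a change of -0.89 ± 0.12 (adjusted p = 0.000535). It had 109 and 98.1 FPKM in the labelled knockout and 151 and 152 FPKM in wild type at day 7. PDIA4 was lower in both labelled knockout libraries than in either wild-type library, with a change of -0.55 ± 0.12 (adjusted p = 0.00398). With nuclear scaling the day 7 change was -0.34, and at day 15 its groups overlapped (0.03 ± 0.12, adjusted p = 0.864). PDIA6 was the 1 ER-branch gene called at all 3 days, with -0.34 ± 0.09, -0.59 ± 0.09 and 0.30 ± 0.09. Its day 3 call ended without any 1 of the 4 libraries (-0.37 to -0.31) and with nuclear scaling (-0.16), under which its day 7 change was -0.38. The day 15 call ended without either wild-type library or labelled knockout replicate 1 (0.25 to 0.30).

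The regulators of the ER arms moved opposite to each other at day 3. XBP1, whose spliced mRNA encodes the active factor, had 76.7 and 64 FPKM in the labelled knockout and 157 and 136 FPKM in wild type at day 3. XBP1 was lower in both labelled knockout libraries than in either wild-type library, with a change of -1.05 ± 0.17 (adjusted p = 0.00166). Gene-level FPKM do not separate the spliced form. XBP1 was not called at day 7 (-0.39 ± 0.17, adjusted p = 0.088) or day 15 (0.27 ± 0.17, adjusted p = 0.233). ATF6, the membrane-held factor released under stress (chromosome 1, 161766294 to 161964070, plus strand), had 6.45 and 6.62 FPKM in the labelled knockout and 3.21 and 3.07 FPKM in wild type at day 3. ATF6 was higher in both labelled knockout libraries than in either wild-type library, with a change of 0.86 ± 0.16 (adjusted p = 0.00332). Its change at day 7 was -0.42 ± 0.16, adjusted p = 0.0528, and at day 15 it was 0.64 ± 0.16, adjusted p = 0.01. The day 15 call ended without wild-type replicate 2 (0.51) or labelled knockout replicate 2 (0.50).

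Of the degradation factors, HERPUD1, which gathers the machinery that removes misfolded proteins, had 11 and 10.6 FPKM in the labelled knockout and 22.2 and 31.6 FPKM in wild type at day 3. HERPUD1 was lower in both labelled knockout libraries than in either wild-type library, with a change of -1.22 ± 0.23 (adjusted p = 0.00383). It was not called at day 7 (-0.18 ± 0.23, adjusted p = 0.551) or day 15 (-0.48 ± 0.23, adjusted p = 0.128). SEL1L, the scaffold of the same machinery, had 43 and 28.8 FPKM in the labelled knockout and 11.5 and 14.3 FPKM in wild type at day 15. SEL1L was higher in both labelled knockout libraries than in either wild-type library, with a change of 1.39 ± 0.25 (adjusted p = 0.00173). At days 3 and 7 the groups of SEL1L overlapped, and its changes of -0.22 and 0.07 were not called.

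**Figure D4:**
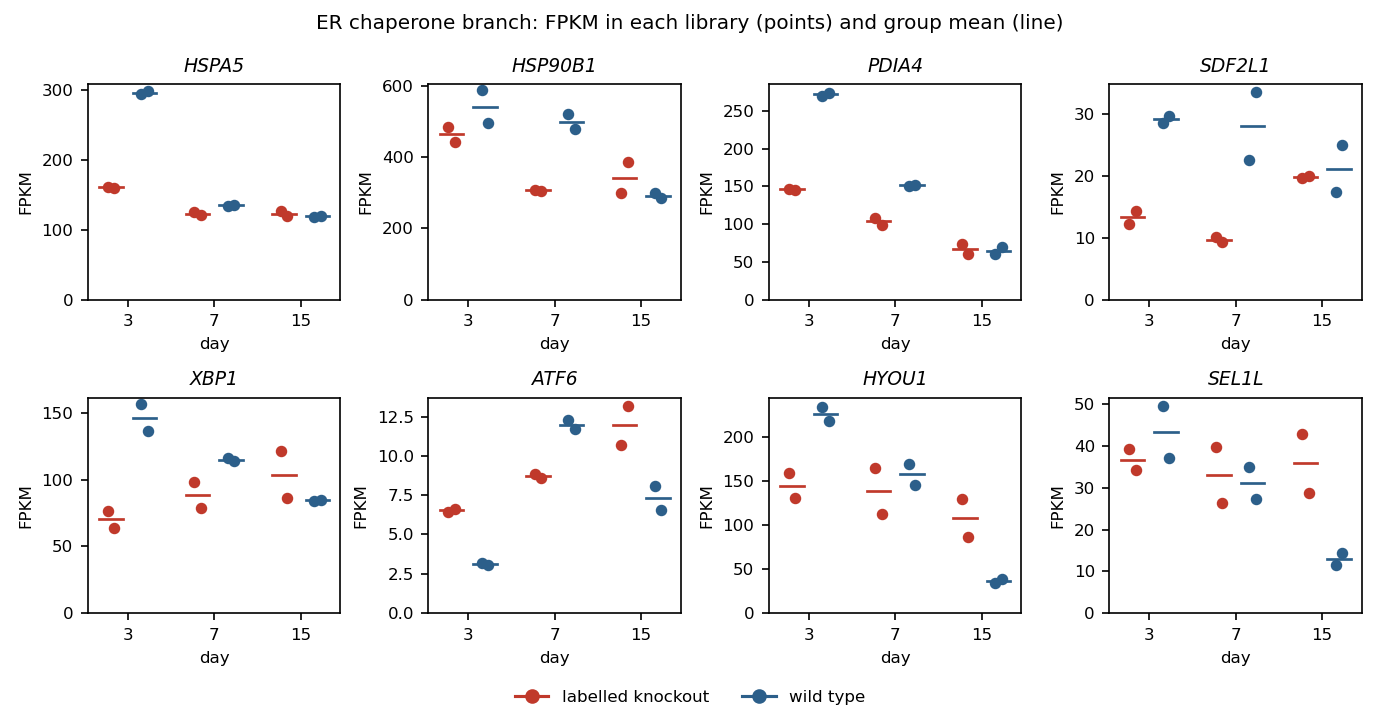
FPKM (y axis) of chosen ER-branch genes in each library (points) and the group mean (line) at days 3, 7 and 15, labelled knockout left of wild type. HSPA5 is apart at day 3 and close after it, and HYOU1 and SEL1L are apart at day 15, where wild type had 33.6 and 38.2 FPKM and 11.5 and 14.3 FPKM.

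Each genotype had its own course over time, and both intervals share the day 7 libraries. In wild type from day 3 to day 7, 18 ATF4-branch genes fell and 1 rose, and 5 ER-branch genes fell and 1 rose. The medians were -0.62 and -0.34 beside -0.035 over all genes. Over all genes 22.6% fell and 21.1% rose, 43.7% in all. The ER-branch count in this interval is below this share. From day 7 to day 15 in wild type, 18 ATF4-branch genes rose and 2 fell, all 9 regulators among those that rose (TRIB3 not without day 15 wild-type replicate 2), and 2 ER-branch genes rose and 9 fell. The medians were 0.82 and -0.46 beside 0.012. All genes gave 25.5% that rose and 26.8% that fell, 52.3% in all. With nuclear scaling the median of all genes in this interval was 0.17, and the calls that rose made up 60.1% of all calls, against 48.7% on the deposited scale. Wild-type CHAC1 averaged 27.8 ± 0.463, 2.44 ± 0.142 and 36.7 ± 3.67 FPKM at days 3, 7 and 15 (SD, n = 2). ATF5 averaged 6.4 ± 0.271, 4.45 ± 0.35 and 65.4 ± 0.319 FPKM, and its rise to day 15 was 3.61 ± 0.13, adjusted p = 6.45e-08. Wild-type HYOU1 averaged 226 ± 11.3, 157 ± 17.1 and 35.9 ± 3.26 FPKM, a fall after day 7 of -2.10 ± 0.21, adjusted p = 2.59e-05.

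In the labelled knockout 17 member genes passed the test in the first interval and 18 in the second, against 25 and 31 in wild type. All genes also had fewer calls in the labelled knockout, 28.6% and 28.4% against 43.7% and 52.3% in wild type. The lower counts are thus not particular to the members. With nuclear scaling the first interval gave 23 member genes in the labelled knockout and 23 in wild type. From day 3 to day 7, 5 ATF4-branch genes rose and 5 fell, and 7 ER-branch genes fell and 0 rose. The medians were 0.21 and -0.38 beside 0.061 over all genes. Of all genes 17.3% rose and 11.4% fell, 28.6% in all. With nuclear scaling 12 member genes rose and 11 fell in this interval, and the calls that rose made up 70.1% of those of all genes, against 60.2% on the deposited scale. From day 7 to day 15, 10 ATF4-branch genes rose and 3 fell, and 4 ER-branch genes rose and 1 fell. The medians were 0.14 and 0.22 beside -0.027. Of all genes 13.3% rose and 15.1% fell, 28.4% in all. With the compared groups fitted alone, 8 member genes rose and 0 fell. Of the 9 regulators 3 rose in this interval, ATF5, CEBPB and TRIB3. The ATF5 call held in all alternatives. That of CEBPB ended with those groups alone and without either day 7 library or day 15 replicate 2 (0.35 to 0.41), and that of TRIB3 ended with those groups alone and without day 7 replicate 2 (0.70). CHAC1 averaged 9.11 ± 2.13, 9.71 ± 1.3 and 7.86 ± 2 FPKM at days 3, 7 and 15. Neither step was called (0.094 ± 0.20 and -0.29 ± 0.20). ATF5 averaged 7.37 ± 0.341, 14.7 ± 0.701 and 78.6 ± 8.78 FPKM. WARS, at 99.2 ± 5.01, 45 ± 0.879 and 177 ± 35.7 FPKM, fell and then rose in the labelled knockout (-1.12 ± 0.14 and 1.94 ± 0.14). The counts of the first interval moved to 10 genes of both branches without day 3 labelled knockout replicate 1 and to 11 without day 7 labelled knockout replicate 1, against 17.

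**Figure D5:**
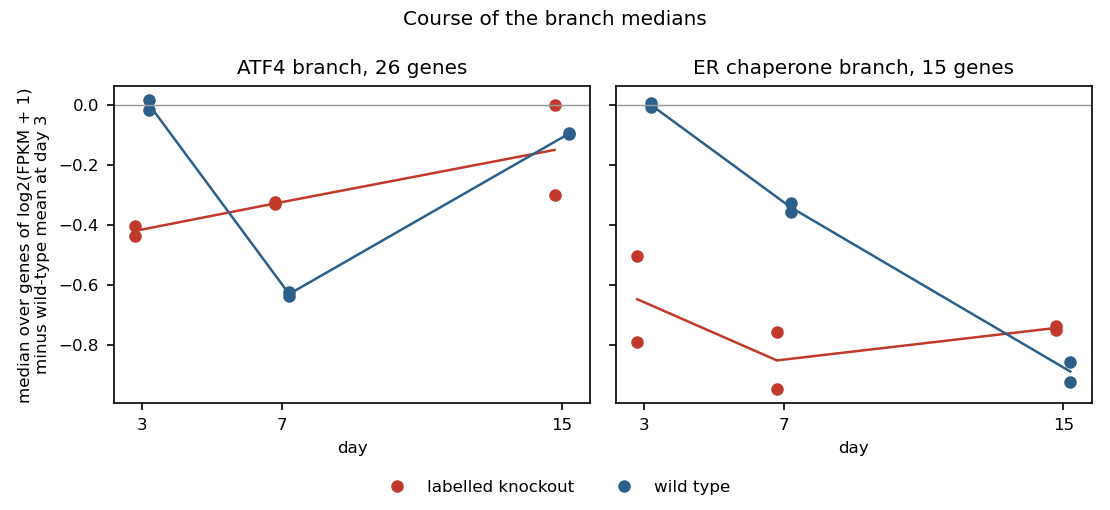
Median over the genes of a branch of log2(FPKM + 1) minus the wild-type mean at day 3 (y axis), in each library (points) with group means joined, at days 3, 7 and 15. The wild-type ATF4 branch lay lowest at day 7 (-0.62 and -0.64), and the wild-type ER branch lay lower at each later day.

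The difference between genotypes itself differed between days, as tested by the interaction. From day 3 to day 7 it moved up for 15 ATF4-branch genes and down for 1, and up for 2 ER-branch genes and down for 1. The medians were 0.72 and 0.037 beside 0.086 over all genes. All genes gave 11.3% up and 8.9% down, 20.2% in all. The ER-branch count of this interval is near this share. From day 7 to day 15 it moved down for 13 ATF4-branch genes and up for 4, and up for 10 ER-branch genes and down for 0. The medians were -0.65 and 0.89 beside -0.0074. All genes gave 16.6% up and 15.2% down, 31.7% in all. With nuclear scaling the median of all genes here was -0.17, and 37.7% of the calls were up, against 52.2% on the deposited scale. Among the values, PSAT1 had 2.50 ± 0.15, adjusted p = 6.01e-06 for the first interval. CARS had 2.08 ± 0.22, adjusted p = 0.000239 for the same interval, and HYOU1 had 1.73 ± 0.30, adjusted p = 0.00203 for the second.

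Other genes of these pathways were counted in lists by role, beside the 23.6%, 42% and 35.1% of all genes called at days 3, 7 and 15. Of 23 measured further ATF4 targets, 3 were higher and 6 lower at day 3, 3 higher and 5 lower at day 7, and 7 higher and 5 lower at day 15, which made 9, 8 and 12 called. The day 7 count is below the share of all genes. Their medians were -0.24, -0.11 and 0.30. NUPR1, FGF21 and GDF15 were not analysed here. DDIT4, an inhibitor of mTORC1 that hypoxia also induces, averaged 477 ± 0.454 FPKM in the labelled knockout and 124 ± 2.25 FPKM in wild type (log2 change 1.93, adjusted p = 2.88e-06) at day 3 (SD, n = 2 in each group). At day 7 it had 129 ± 2.61 FPKM in the labelled knockout and 244 ± 6.71 FPKM in wild type (log2 change -0.91, adjusted p = 5.48e-05). At day 15 DDIT4 had 301 ± 6.88 FPKM in the labelled knockout and 114 ± 11.1 FPKM in wild type (log2 change 1.40, adjusted p = 6.21e-06). This order is opposite to that of CHAC1 at each day. GADD45A, a growth arrest gene, was lower at day 3 with 16.7 ± 2.64 FPKM in the labelled knockout and 47.2 ± 3.2 FPKM in wild type (log2 change -1.45, adjusted p = 6.21e-05). It was lower at day 15 too, with 29.8 ± 1.14 FPKM in the labelled knockout and 87.4 ± 4.79 FPKM in wild type (log2 change -1.52, adjusted p = 2.66e-05). Of 15 other cytoplasmic synthetases 1 was higher and 1 lower at day 3, 5 higher and 2 lower at day 7, and 6 higher and 3 lower at day 15. Their day 3 count is below the share of all genes. MARS, for methionine, was lower at day 3 with 65.4 ± 10.3 FPKM in the labelled knockout and 115 ± 5.49 FPKM in wild type (log2 change -0.81, adjusted p = 0.00137). It was higher at day 7 with 98.3 ± 6.73 FPKM in the labelled knockout and 45.6 ± 0.944 FPKM in wild type (log2 change 1.09, adjusted p = 9.67e-05). The exons of MARS overlap DDIT3 on the other strand. DARS ran the other way, higher at day 3 (log2 change 0.57, adjusted p = 0.00488) and lower at day 7 (-0.30, adjusted p = 0.0487). KARS was lower at day 7 (-0.71, adjusted p = 0.000474). Of 17 mitochondrial synthetases 2 were higher and 0 lower at day 3, 7 higher and 1 lower at day 7, and 3 higher and 2 lower at day 15. Their counts at days 3 and 15 are below the shares of all genes.

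Against the same shares of all genes, the 33 other ER genes, for folding, translocation and degradation, gave 0 higher and 15 lower at day 3, 2 higher and 19 lower at day 7, and 9 higher and 6 lower at day 15, or 15, 21 and 15 called. Their medians were -0.49, -0.65 and 0.0072. PPIB, an ER prolyl isomerase, had 194 ± 5.42 FPKM in the labelled knockout and 453 ± 6.64 FPKM in wild type (log2 change -1.22, adjusted p = 3.11e-05) at day 3. It had 128 ± 3.53 FPKM in the labelled knockout and 337 ± 2.93 FPKM in wild type (log2 change -1.39, adjusted p = 5.79e-06) at day 7. ERO1A, the oxidase that recharges disulfide isomerases and a hypoxia target, had 37.4 ± 2.43 FPKM in the labelled knockout and 10.8 ± 2.76 FPKM in wild type (log2 change 1.72, adjusted p = 3.95e-05) at day 15. Cytosolic heat shock genes, a chaperone system outside the ER, gave 1 higher and 3 lower of 12 at day 3, 2 higher and 2 lower at day 7, and 6 higher and 3 lower at day 15. Their 4 calls of 12 at day 7 are below the share of all genes. HSPA8, the constitutive cytosolic HSP70, had 611 ± 96.4 FPKM in the labelled knockout and 241 ± 22.3 FPKM in wild type (log2 change 1.33, adjusted p = 6.43e-05) at day 15. Of 12 sensors and eIF2 factors 0 were called at day 3, 1 was higher at day 7 and 2 at day 15, with 0 lower at any day by limma's test. An unadjusted p of 0.05 was passed by 2, 2 and 3 of them. The called counts are below the share of all genes at each day. EIF2AK1, the eIF2 kinase that responds to low heme and mitochondrial stress, had 60.5 ± 12.9 FPKM in the labelled knockout and 32 ± 2.3 FPKM in wild type (log2 change 0.88, adjusted p = 0.00175) at day 15.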

How the data were processed

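RNA of 12 libraries was extracted with Trizol, per the labels' protocols, and BWA and hg38 (GRCh38) are named by the submitters' processing notes. The quantifier, annotation and strand setting were not given in the sources used here. The authors deposited 1 table of FPKM per library with 17096 genes, and no counts. Low FPKM of 863 single-transcript genes were read as multiples of 1 fragment, and 60% to 78.7% lay within 0.1 of whole numbers. Only 17 to 47 low values a library entered these shares, and the depth was the one that gave the highest share. Counts were therefore not rebuilt. With no counts, no binomial intervals are given.

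The tables were joined by gene, and log2(FPKM + 1) was kept for the 16295 genes that reached 1 FPKM in 2 or more libraries and fitted by limma (version 3.58.1, in R 4.3.3) with a trend, as 6 group means over 12 libraries with 6 residual degrees of freedom. 9 contrasts were tested two-sided, with Benjamini-Hochberg adjustment over all genes and a threshold of 0.05. The script was tested on simulated data. All 41 genes are named, and names from each other list are among the up to 2 genes a direction and day with the smallest adjusted p and a mean of at least 5 FPKM.

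Alternatives were a pseudocount of 0.1, no filter, a filter at 5 FPKM, median-ratio and nuclear scaling, no trend, a replicate block, the compared groups alone and leaving out each library. The members and lists were chosen with earlier results of these data known, and per-gene alternatives of time courses, interactions and other lists were added after seeing the data. Of the members, 17 overlap exons on the other strand and 4 on the same strand, and 11 have named pseudogenes in GENCODE release 29, which makes their FPKM uncertain. Replicates of a group correlated at 0.970 to 0.989 over genes.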

Additional observations from a re-analysis of the deposited data

Results flagged for a closer look

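For 19 genes between days 3 and 7 and for 27 between days 7 and 15, the difference between the labelled knockout and wild type itself differed, by the interaction of genotype and day in limma. The values are log2 changes at the later day minus those at the earlier day, with an adjusted p below 0.05 over all genes, where 20.2% and 31.7% of all genes passed.

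From day 3 to day 7 the difference moved up in the ATF4 branch for ATF3 (1.37), ATF5 (1.35), CHAC1 (3.16), ASNS (1.54), PSAT1 (2.50), SHMT2 (0.76), MTHFD2 (0.56), SLC7A11 (2.30), SLC7A5 (1.46), SLC3A2 (0.90), SLC7A1 (0.79), CARS (2.08), GARS (1.43), WARS (0.67) and AARS (1.22). It moved down for VLDLR (-1.98). In the ER branch it moved up for HSPA5 (0.74) and HERPUD1 (1.04) and down for ATF6 (-1.28). The calls of ATF3, SHMT2, MTHFD2, SLC7A1, WARS and HERPUD1 ended in 1 alternative at least, and the other 13 held in all. Leaving out 1 library was enough for each of the 6, with values of 1.21 to 1.28 for ATF3, 0.67 to 0.68 for SHMT2, 0.49 to 0.63 for MTHFD2, 0.73 to 0.80 for SLC7A1, 0.60 to 0.73 for WARS and 0.75 to 1.07 for HERPUD1. With median-ratio scaling MTHFD2 had 0.47, not called. With a pseudocount of 0.1 the SLC7A11 value was 3.68.

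From day 7 to day 15 it moved down in the ATF4 branch for ATF4 (-0.71), ATF3 (-1.39), ATF5 (-1.27), DDIT3 (-1.35), CEBPB (-0.65), CEBPG (-0.77), CHAC1 (-3.74), PPP1R15A (-0.995), ASNS (-1.15), PSAT1 (-0.89), MTHFD2 (-0.90), CARS (-1.82) and GARS (-0.85). It moved up for PHGDH (0.55), SHMT2 (0.81), VLDLR (0.75) and WARS (0.82). In the ER branch it moved up for ATF6 (1.06), HSP90B1 (0.92), DNAJB9 (0.85), DNAJC3 (1.04), SDF2L1 (1.35), HYOU1 (1.73), MANF (0.89), PDIA4 (0.58), PDIA6 (0.89) and SEL1L (1.32). The calls of 18 of the 27 held in all alternatives. The other 9 ended where 1 library was left out, with values of -0.68 to -0.63 for ATF4, -0.69 to -0.56 for CEBPB, 0.40 to 0.61 for PHGDH, 0.58 to 0.72 for VLDLR, -0.90 to -0.55 for GARS, 0.70 to 0.93 for DNAJB9, 0.63 to 0.84 for MANF, 0.48 to 0.58 for PDIA4 and 1.03 to 1.17 for SEL1L. With nuclear scaling the calls of PHGDH (0.35), VLDLR (0.55), DNAJB9 (0.66) and PDIA4 (0.37) ended too.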

How the results depend on the processing

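Of 369 gene results, 9 comparisons of 41 genes, 0 changed direction while called under any alternative. Calls made in 13 ATF4-branch and 10 ER-branch genes at day 3 held in all alternatives for 8 and 7 of them, at day 7 for 10 of 17 and 6 of 8, and at day 15 for 11 of 15 and 2 of 4. Leaving out 1 library gave 8 to 10 ATF4-branch calls at day 3 (13 with all libraries), 11 to 13 at day 7 (17) and 2 to 5 ER-branch calls at day 15 (4), the lowest without day 3 wild-type replicate 1, without day 7 labelled knockout replicate 1 and without day 15 wild-type replicate 2. It gave 10 to 14 calls over both branches from day 3 to day 7 in the labelled knockout (17). Fitting the compared groups alone gave 2 ER-branch calls at day 15 and 8 over both branches from day 7 to day 15 in the labelled knockout (18). At day 15 that fit, which uses fewer libraries, also ended the calls of PHGDH, VLDLR, CARS, AARS, ATF6 and PDIA6, and at day 7 that of SLC38A2. Without the trend the calls of PDIA6 at days 3 and 15, PPP1R15A at day 7 and CARS and AARS at day 15 ended. The cause of these moves was not tested. The other 147 recomputed counts lay within 1.5 times of those reported. Depth limits the lowest genes, such as SLC7A11 in wild type at day 7.

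Replicate differences correlated across genes at 0.037, 0.024 and -0.12 between genotypes at days 3, 7 and 15, which showed little pairing by replicate number within a day. Pairing across days within a genotype was not tested. With a replicate block, 13, 17 and 16 ATF4-branch genes and 11, 9 and 4 ER-branch genes were called at those days. The time courses with the block gave 26 and 31 calls in wild type and 19 and 19 in the labelled knockout, and the interactions 21 and 29. With crossed numbers at day 15, a block chosen after seeing the data, 14 and 4 genes were called.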
